A study of Mus musculus with 69 samples.

Results

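Malat1, Neat1, Meg3, Miat, Rian, Snhg11 and Mirg are long noncoding RNA genes whose transcripts are retained in the nucleus or are processed there. They were measured in 3 mouse experiments on Toll-like receptor 7 (TLR7), an endosomal receptor for single-stranded RNA. The 7 genes were found by symbol in each of the 3 count tables, out of 54429 genes in the inhibitor table and 54532 in each of the others. The set was chosen by the fall of Malat1 in hippocampi of inhibitor-treated mice, so the inhibitor values of its members are given as a description, and nothing is read from whether they passed a threshold. The gardiquimod and microglia comparisons did not enter that choice and were tested.

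The inhibitor libraries came from hippocampi of PSUK+ mice. They comprised 6 males and 5 females given a TLR7 inhibitor, and 3 males and 3 females given the control treatment. Ages were 5.5, 6.06 or 6.85 months. Controls were 5.5 months old except female replicate 3, at 6.85 months, and the age of 6.06 months occurred in treated mice alone. The labels describe neither the PSUK genotype nor the compound further. The agonist libraries came from hippocampi of WT mice given gardiquimod, a TLR7 agonist, or saline, with 7 libraries per group; males were 12.1 and females 9.6 months old. The third experiment used cultures of primary microglia, the resident macrophages of the brain, taken on postnatal days 1 to 3 from TLR7-/- (KO) or WT mice of each sex. These cultures received purified myelin or DMSO, with 3 libraries in each of 8 groups.

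Malat1 is an abundant nuclear RNA that accumulates in speckles, bodies rich in splicing factors, and Neat1 is the scaffold around which paraspeckle proteins assemble. Meg3, Rian and Mirg are expressed from the maternal chromosome of the imprinted Dlk1-Dio3 locus, where Rian hosts small nucleolar RNAs and Mirg hosts microRNAs. Miat is a neuronal nuclear RNA, and Snhg11 is a host gene of small nucleolar RNAs that is abundant in neurons. In the brain Meg3, Rian, Miat and Snhg11 are mainly neuronal transcripts, whereas Malat1 is made by nearly all cells.

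In GRCm38 Malat1 (ENSMUSG00000092341) is annotated as a lincRNA at chr19:5795690-5802672 on the minus strand, and Neat1 (ENSMUSG00000092274), also a lincRNA, at chr19:5824708-5845478 on the same strand. Meg3 (ENSMUSG00000021268, lincRNA) lies at chr12:109541001-109571726, Rian (ENSMUSG00000097451, processed transcript) at chr12:109603940-109661716 and Mirg (ENSMUSG00000097391, lincRNA) at chr12:109729764-109749460, all on the plus strand. Miat (ENSMUSG00000097767, lincRNA) lies at chr5:112213228-112229395 on the minus strand. Snhg11 (ENSMUSG00000044349) lies at chr2:158375638-158386145 on the plus strand, and the tables list it as protein coding. The annotated span of Rian overlaps 13 snoRNA and 4 miRNA genes, that of Mirg 15 miRNA genes and that of Snhg11 2 snoRNA genes. Malat1, Meg3, Miat and Mirg each overlap 1 annotated gene on the opposite strand. On the same strand Malat1 overlaps 1 annotated gene, Neat1 3, Meg3 4, Miat 4, Rian 19, Snhg11 2 and Mirg 14. How the authors' counting used strand, or reads shared by overlapping genes, is not given in the sources used here. Reads of those overlapping genes therefore cannot be told apart from reads of the members.

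The libraries were made with a 3′ kit that primes on runs of A, so the sequence at a transcript's 3′ end bears on what is counted. The last 60 bases of 4 annotated transcripts are shown 5′ to 3′ because they are the ends nearest to such reads. Capitals mark AATAAA, the usual polyadenylation hexamer. The transcripts are Malat1-201 (chr19:5795690-5795749, minus strand), Neat1-202 (chr19:5842307-5842366, minus), Meg3-207 (chr12:109571662-109571721, plus) and Snhg11-201 (chr2:158386086-158386145, plus), in GRCm38 with GENCODE M21.
Malat1-201: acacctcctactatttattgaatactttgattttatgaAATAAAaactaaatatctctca
Neat1-202: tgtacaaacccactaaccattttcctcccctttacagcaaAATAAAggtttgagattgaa
Meg3-207: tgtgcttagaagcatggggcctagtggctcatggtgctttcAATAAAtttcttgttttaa
Snhg11-201: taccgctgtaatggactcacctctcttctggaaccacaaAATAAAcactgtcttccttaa

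The hexamer stood in the last 50 bases of 3 of 4 annotated Malat1 transcripts, 1 of 4 of Neat1, 4 of 11 of Meg3, 0 of 6 of Miat, 3 of 20 of Rian, 2 of 5 of Snhg11 and 7 of 12 of Mirg. Of 131058 annotated mouse transcripts, 28.5% hold it there. The mature end of Malat1 and that of the long Neat1 isoform are known to be made by RNase P cleavage, which leaves no usual poly(A) tail but an A-rich stretch encoded in the genome. Those stretches are shown next, with the longest run that both stretches share, 16 bases, in capitals. The Malat1 stretch (chr19:5795980-5796039, minus strand) ends 290 bases before the annotated end of Malat1-201 and holds a run of 12 A, which 4.38% of annotated transcripts also hold somewhere. The Neat1 stretch (chr19:5824708-5824767, minus strand) is the end of the long isoform Neat1-201.
Malat1-201: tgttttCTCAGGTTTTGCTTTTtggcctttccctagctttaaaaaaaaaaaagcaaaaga
Neat1-201: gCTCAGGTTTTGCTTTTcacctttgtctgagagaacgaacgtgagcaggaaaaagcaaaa
Gene counts do not separate these ends, and a fold change of Malat1 or Neat1 below is one of reads assigned to the whole gene.

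Levels are CPM, counts set relative to the library total after scaling with the trimmed mean of M values (TMM). Differences are given on the log2 scale, each with its standard error (SE). Genes were called in edgeR's quasi-likelihood test where p, adjusted after Benjamini and Hochberg across the table, was under 0.05. Overlap of groups is described for members and marker sums. The share of all genes with separate groups was not counted in any experiment, so separation alone is not read as a result. Libraries held 14.4 to 21 M counts in the inhibitor, 14.3 to 23.5 M in the agonist and 15.3 to 21.3 M in the microglia experiment. The labels call all RNA nuclear and from microglia. However, the summed level of 15 neuron markers was 12300 to 20200 CPM in hippocampal libraries and 16 to 26.5 CPM in microglia cultures. These levels bear on the label of microglia alone, and whether the RNA was nuclear was not tested. Tlr7 was 1.25 to 2.76 CPM in KO and 167 to 197 CPM in WT microglia. In bulk tissue, fewer cells of a type and less RNA per cell cannot be told apart. In the inhibitor experiment mitochondrially encoded genes took 3.31 to 15.7% of counts. The summed level of 8 choroid plexus markers was 3690 to 4730 CPM in inhibitor-treated females and 42.8 to 1600 CPM in control females, without overlap, and 90 to 4740 against 3420 to 3590 CPM in males. Of the inhibitor-treated male libraries, replicates 1 and 2 held Xist at 11.1 and 3.26 CPM, and male KO microglia held 0.928 to 1.96 CPM against 0 to 0.125 CPM in male WT cultures.

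Malat1 was lower with the inhibitor in both sexes. In males it stood at 253, 204, 186, 249, 247 and 235 CPM with the inhibitor and at 342, 396 and 295 CPM in controls. In females it stood at 215, 229, 225, 214 and 247 CPM with the inhibitor and at 323, 349 and 478 CPM in controls. Every inhibitor-treated library lay below every control library of its sex, and the highest value was that of 1 control female. How many of all genes had separate groups was not counted, so nothing is read from that separation. The log2 fold change was -0.59 ± 0.14 in males, -0.76 ± 0.14 in females and -0.67 ± 0.10 averaged over the sexes. The female value minus the male value was -0.18 ± 0.20. Among the 2013 genes with a mean of at least 100 CPM, ranked from the lowest fold change up, Malat1 was number 38 in males, 5 in females and 2 on average. Among all 17128 genes tested it was number 444 in males, 423 in females and 67 on average. These ranks describe the value that chose the set, and nothing is read from them.

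The other 6 members had overlapping groups in both sexes. Neat1 was 112 to 133 CPM (median 123) in inhibitor-treated males and 136, 95.9 and 66.9 CPM in control males. In females Neat1 was 64.8, 90.3, 104, 111 and 118 CPM with the inhibitor and 73.5, 118 and 107 CPM in controls. Control males spread over a wider range than the 6 treated males, which all lay inside it. The log2 fold change of Neat1 was 0.30 ± 0.20 in males and -0.03 in females.

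Of the neuronal members, Meg3 was 645 to 1111 CPM (median 781) in treated males and 942, 622 and 1004 CPM in control males. In females Meg3 was 758, 1053, 565, 847 and 812 CPM with the inhibitor and 861, 897 and 1002 CPM in controls. Both the highest and the lowest female value belonged to treated libraries. Its log2 fold changes were -0.05 in males and -0.19 in females. Miat was 123 to 237 CPM (median 184) in treated and 132 to 203 CPM in control males, and 115 to 218 against 206 to 244 CPM in females. With 1 treated library above the lowest control, Miat in females, like Mirg in males, came nearest among these 6 to separate groups. The log2 fold change of Miat was -0.43 in females and 0.09 in males.

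Rian, the snoRNA host of the imprinted locus, was 437 to 477 CPM (median 457) in treated males and 350 to 455 CPM in control males, and 346 to 446 against 329 to 465 CPM in females, with log2 fold changes of 0.12 and -0.03. Snhg11 was 313 to 578 CPM (median 380) in treated and 329 to 510 CPM in control males, and 278 to 615 against 422 to 480 CPM in females, with -0.08 and 0.02. Mirg, the lowest of the set, was 4.35 to 7.32 CPM (median 5.72) in treated and 6.98 to 9.82 CPM in control males, and 5.97 to 11.4 against 5.66 to 6.82 CPM in females. Its log2 fold change was -0.46 ± 0.22 in males and 0.32 ± 0.23 in females. With the level of astrocyte markers, described below, as a covariate it was -0.06 and -0.04. The opposite signs in the sexes were thus not kept in that fit. The plot of inhibitor and control levels shows all 7 members.

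**Figure D1:**
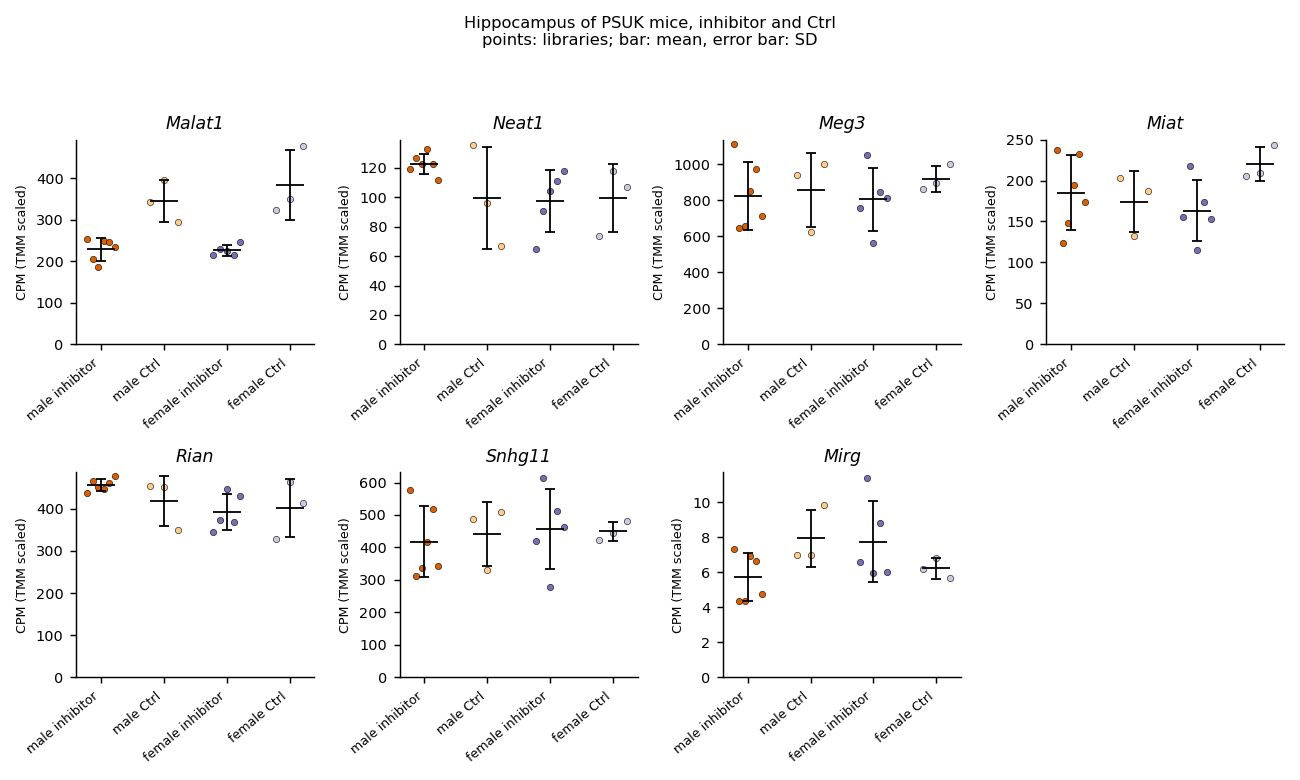
Levels of the 7 noncoding RNAs in hippocampi of PSUK+ mice, in CPM with TMM scaling, by sex and treatment. Points are libraries, bars the mean and error bars the SD; Malat1 points of treated mice lie below those of controls in both sexes, at 186 to 253 against 295 to 396 CPM in males, and the groups of the other 6 genes overlap.

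Over all genes tested, edgeR called 0.105% in males, 0.0876% in females, 0.0117% on average and 2.41% for the difference between the sexes. Malat1, whose fall chose the set, was in these shares in females and on average and no other member was, and nothing is read from that. A list of 25 other nuclear long noncoding RNAs had 19 tested, of which edgeR called 0 in either sex (3 in males and 1 in females at an unadjusted p under 0.05), with a median log2 fold change of 0.14 in males and -0.13 in females. Its most abundant genes showed no common direction. Peg13, an imprinted noncoding RNA of brain, was -0.26 ± 0.20 in males and 0.16 ± 0.21 in females. Tug1, a nuclear noncoding RNA, was 0.00 ± 0.09 and 0.25 ± 0.10, and Mir124a-1hg, the host of a neuronal microRNA, was -0.09 ± 0.21 and -0.13 ± 0.22. Over all 1419 long noncoding genes tested the median was 0.16 in males and -0.14 in females, against 0.01 and -0.01 over all genes. In males the list's median stood near that of its class, as it did in females.

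Lists of nuclear body, snoRNA host and detained-intron genes were described in the same way. None of 26 speckle and splicing factor genes, 21 paraspeckle protein genes, 14 snoRNA host genes or 15 detained-intron genes was called by edgeR in males or females. With 0.105% of all genes called in males and 0.0876% in females, lists of this size would seldom hold a call, and nothing is read from that. At an unadjusted p under 0.05 they numbered 1, 2, 0 and 2 in males and 1, 4, 1 and 1 in females. Their medians were -0.03, -0.12, 0.31 and -0.13 in males and 0.03, 0.17, -0.15 and -0.04 in females. Detained-intron transcripts are incompletely spliced mRNAs that are held in the nucleus. Gene counts do not separate them from the spliced mRNAs of the same genes. Of 25 imprinted genes edgeR called 0 in males (6 at an unadjusted p under 0.05) and 2 in females, both higher. They were Dio3, which encodes a thyroid hormone deiodinase at the end of the Meg3 locus, at 1.74 ± 0.29, and Plagl1, a transcription factor gene, at 0.998 ± 0.18. Choroid plexus markers were higher in the same treated females, and their part in these values was not tested.

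Astrocyte markers, like those of choroid plexus, were separate between groups in 1 sex. The summed level of 8 of them was 9510 to 13200 CPM in inhibitor-treated males and 3840 to 8360 CPM in control males, without overlap, and 2870 to 10700 against 6760 to 11000 CPM in females. The difference in Malat1 was recomputed with such features of the libraries. With the astrocyte marker level as a covariate the fold change was -0.67 in males, -0.68 in females and -0.68 on average. With the choroid plexus marker level as a covariate the fold change was -0.63 in males, -0.62 in females and -0.63 on average. Without the 4 libraries that had under 5% mitochondrial counts it was -0.69, -0.85 and -0.77. Without the 2 male libraries that held Xist it was -0.60 in males and -0.68 on average, and with only the youngest male libraries it was -0.61. Leaving out control female replicate 3 gave -0.57 in females, where the other libraries left out in turn gave up to -0.87. That replicate was the highest of all 17 libraries and the only control aged 6.85 months. Over 19 alternatives in females, age as a covariate among them, the value lay between -0.87 and -0.57. Malat1 was lower with the inhibitor in all these fits, which describe the value that chose the set. Astrocyte markers did not overlap between groups in males, nor choroid plexus markers in females. There the fit can hardly tell marker level from treatment.

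With gardiquimod no member was called in either sex by edgeR, DESeq2 or limma-voom, and at an unadjusted p under 0.05 in edgeR there were 0 in males and 2 in females, Meg3 and Neat1. The comparisons called 0.221% of genes in males, 0.0232% in females, 0.215% averaged over the sexes and 0.00581% for the difference between the sexes, so few genes of any kind passed. Malat1 was 246 to 576 CPM (median 449.8) in gardiquimod males and 333 to 558 CPM (median 453) in saline males. Its log2 fold change was -0.05 ± 0.17 in males, with a 95% interval of -0.38 to 0.28 (adjusted p = 0.908 in edgeR). In females it was 279 to 506 CPM (median 393) with gardiquimod and 314 to 709 CPM (median 449) with saline, at -0.24 ± 0.17 and an interval of -0.57 to 0.09 (adjusted p = 0.815 in edgeR). The groups overlapped widely in both sexes, and the highest level was again that of 1 female given the control treatment.

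In females Meg3, Neat1, Miat and Snhg11 had negative fold changes that did not pass the test. Meg3 was 683 to 956 CPM (median 901) with gardiquimod and 822 to 1423 CPM (median 1056) with saline in females, at -0.33 ± 0.13 (adjusted p = 0.791 in edgeR). Neat1 was 77.9 to 124 CPM (median 119) with gardiquimod and 99.4 to 224 CPM (median 123) with saline, at -0.38 ± 0.17 (adjusted p = 0.794 in edgeR). The saline library with the highest Neat1 was also the one with the highest Meg3, Malat1, Snhg11 and Mirg. Miat was -0.24 ± 0.13, Snhg11 -0.21 ± 0.11, Rian -0.05 ± 0.06 and Mirg 0.10 ± 0.14 in females. In males Neat1 was 135 to 204 CPM (median 174) with gardiquimod and 110 to 242 CPM (median 149) with saline, at 0.16 ± 0.17, and the other 5 lay between -0.12 and 0.07.

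The female response of Neat1 minus the male one was -0.54 ± 0.25 (adjusted p = 0.28 in edgeR), and that of Meg3 was -0.31 ± 0.18 (adjusted p = 0.388). Sex and age cannot be told apart in that difference, because the males were 12.1 and the females 9.6 months old. The plot of gardiquimod and saline levels shows the overlap of all groups. Rian varied least, with all 28 libraries between 403 and 548 CPM. None of 19 other nuclear noncoding RNAs, 14 snoRNA hosts, 26 speckle, 21 paraspeckle, 15 detained-intron or 24 imprinted genes was called by edgeR in the 4 comparisons. In the same order, 4, 2, 1, 1, 1 and 3 of them had an unadjusted p under 0.05 in males and 0, 0, 2, 0, 0 and 0 in females. Medians of these 6 lists lay between -0.07 and 0.10 in males and between -0.11 and 0.03 in females.

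**Figure D2:**
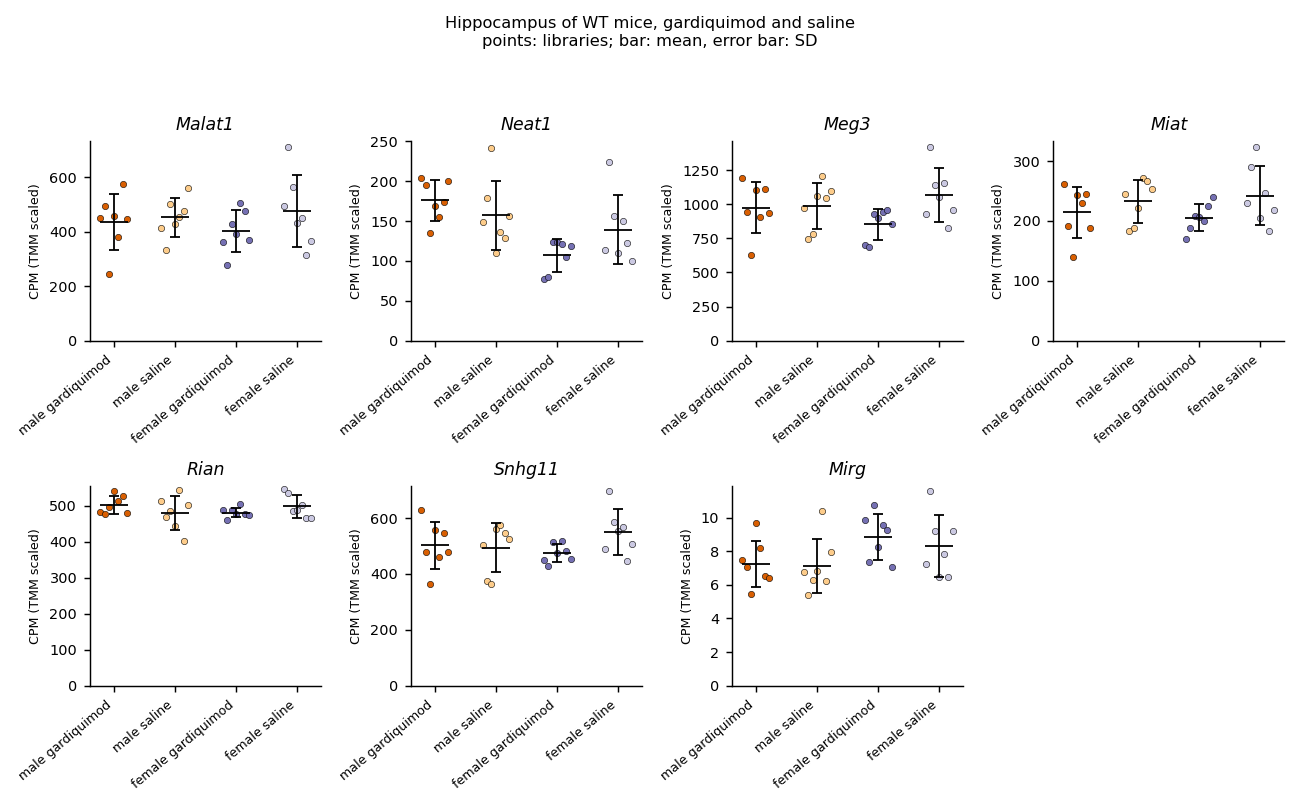
Levels of the 7 noncoding RNAs in hippocampi of WT mice given gardiquimod or saline, in CPM with TMM scaling, with 7 libraries per group. Points are libraries, bars the mean and error bars the SD; the groups of every gene overlap within each sex, as for Malat1 at 246 to 576 CPM with gardiquimod and 333 to 558 CPM with saline in males.

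In microglia cultures the set fell into abundant and scarce members. The 3 tables were scaled separately, so levels across them are set side by side without a test. Neat1 was 700 to 1322 CPM in microglia, 64.8 to 136 CPM in inhibitor-experiment hippocampi and 77.9 to 242 CPM in agonist-experiment hippocampi. Malat1 was 184 to 330 CPM in microglia and 186 to 478 and 246 to 709 CPM in hippocampi. Meg3 was 0.119 to 2.50 CPM in microglia against 565 to 1111 and 630 to 1423 CPM in hippocampi. Miat was 0.465 to 2.20 CPM against 115 to 244 and 140 to 324 CPM, and Rian 0.205 to 1.16 CPM against 329 to 477 and 403 to 548 CPM. Snhg11 was 1.62 to 5.53 CPM in microglia, with 278 to 615 and 365 to 698 CPM in hippocampi. Mirg gave 4 reads over all 24 microglia libraries, 3 in male WT DMSO and 1 in female KO myelin cultures, and was not tested there. The members with neuronal expression were thus those with few reads in microglia, at most 43 for Meg3, 36 for Miat and 20 for Rian in 1 library.

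Neat1 rose with myelin in all 4 kinds of culture. In male KO cultures Neat1 was 1075, 1132 and 1026 CPM with myelin and 700, 746 and 836 CPM with DMSO. In male WT cultures it was 1074, 1223 and 1145 CPM with myelin and 833, 831 and 833 CPM with DMSO. Every myelin library exceeded every DMSO library of its kind, a separation whose share over all genes was not counted. Female KO cultures held 1322, 1306 and 1257 CPM with myelin and 853, 935 and 750 CPM with DMSO. Female WT cultures held 1088, 1117 and 1010 CPM with myelin and 768, 804 and 784 CPM with DMSO, again without overlap.

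The rise was 0.50 ± 0.07 in male KO (adjusted p = 2.34e-05 in edgeR), 0.46 ± 0.07 in male WT (adjusted p = 5.3e-05), 0.61 ± 0.07 in female KO (adjusted p = 1.93e-06) and 0.45 ± 0.07 in female WT cultures (adjusted p = 7.27e-05). Myelin changed much of the transcriptome, with 38.2% of genes called in male KO, 39.3% in male WT, 41.2% in female KO and 40.4% in female WT. The response of Neat1 did not differ by genotype beyond error, at 0.04 ± 0.10 KO minus WT in males (95% interval -0.16 to 0.24) and 0.17 ± 0.10 in females (-0.04 to 0.37). That contrast called 2.59% of genes in males and 0.919% in females, and no member.

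Malat1 rose with myelin in female cultures. Female KO cultures held 249, 298 and 257 CPM with myelin and 184, 205 and 207 CPM with DMSO, a change of 0.43 ± 0.10 (adjusted p = 0.00241 in edgeR). Female WT cultures held 293, 280 and 330 CPM with myelin and 259, 208 and 239 CPM with DMSO, a change of 0.36 ± 0.10 (adjusted p = 0.00911 in edgeR). In both female cultures the groups did not overlap. The female WT call ended without DMSO replicate 2 (0.28, adjusted p = 0.0576 in edgeR) and without myelin replicate 3 (0.27, adjusted p = 0.072).

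In male KO cultures Malat1 was 315, 304 and 320 CPM with myelin and 315, 249 and 285 CPM with DMSO, at 0.15 ± 0.10 (adjusted p = 0.288 in edgeR). In male WT cultures it was 307, 274 and 264 CPM with myelin and 284, 307 and 260 CPM with DMSO, at -0.01 ± 0.10 (adjusted p = 0.956 in edgeR). Male DMSO cultures, at 249 to 315 CPM, lay within the range of female myelin cultures, at 249 to 330 CPM. The response of females minus that of males was 0.29 ± 0.14 in KO (adjusted p = 0.632 in edgeR) and 0.37 ± 0.14 in WT (adjusted p = 0.924), so a sex difference in the response was not shown. These contrasts, added after the data had been seen, called 0.0553% of genes in KO and 0.0415% in WT.

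Markers of oligodendrocyte precursors also rose with myelin, at 149 to 166 against 109 to 123 CPM in male KO, 149 to 159 against 126 to 133 CPM in male WT, 138 to 164 against 117 to 130 CPM in female KO and 109 to 117 against 84.2 to 85.6 CPM in female WT cultures, all 8 of them detected. With their level as a covariate Malat1 was 0.29 ± 0.14 in female KO (adjusted p = 0.155 in edgeR) and 0.15 ± 0.18 in female WT cultures (adjusted p = 0.655). Neat1 was 0.41 ± 0.14 in male KO (adjusted p = 0.0633 in edgeR) and 0.37 ± 0.13 in female WT cultures (adjusted p = 0.0632). Those 4 calls ended, while the other 2 of Neat1 held. Precursor marker levels did not overlap between myelin and DMSO in any culture, so the fit can hardly tell marker level from myelin. Oligodendrocyte markers moved further, with all 10 detected. Their summed level was 563 to 628 against 210 to 243 CPM in male KO, 540 to 639 against 203 to 242 CPM in male WT, 526 to 889 against 187 to 202 CPM in female KO and 650 to 749 against 258 to 308 CPM in female WT cultures. Their part in the rises of Neat1 and Malat1 was not tested.

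Among the scarce members, Miat passed in 1 culture. In male KO microglia it was 0.478, 0.594 and 0.589 CPM with myelin and 1.61, 1.31 and 1.47 CPM with DMSO, a fall of -1.38 ± 0.40 (adjusted p = 0.00381 in edgeR). Those libraries rest on 7 to 12 reads with myelin and 22 to 26 with DMSO. The other 3 cultures gave -0.64 ± 0.35 in male WT, -0.66 ± 0.35 in female KO and -0.46 ± 0.39 in female WT, none of them called. With the precursor marker covariate the male KO value was -0.48 ± 0.695 (adjusted p = 0.718 in edgeR). Rian was -0.76 ± 0.54 and -0.61 ± 0.46 in male KO and WT, 0.25 ± 0.46 and -0.22 ± 0.47 in female KO and WT. Meg3 ranged from -0.80 in male KO to 0.56 in female KO, and Snhg11 from -0.06 in male WT to 0.36 in male KO, without a call.

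**Figure D3:**
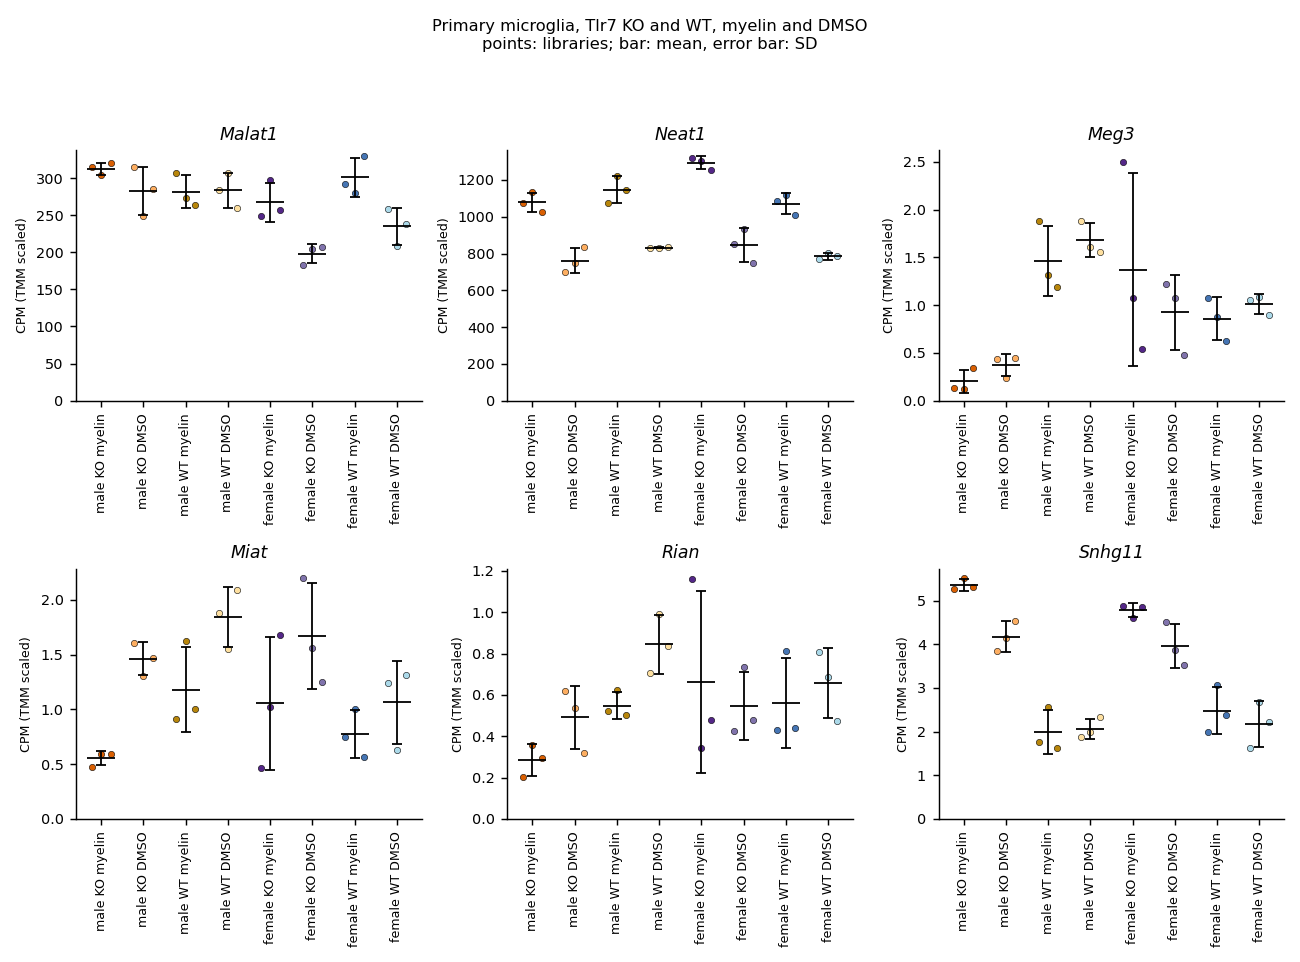
Levels of the noncoding RNAs in primary microglia by sex, genotype and treatment, in CPM with TMM scaling and 3 libraries per group. Points are libraries, bars the mean and error bars the SD; Neat1 is higher with myelin in every culture, Snhg11 is higher in KO, and Meg3 is lowest in male KO cultures, at 0.119 to 0.448 CPM.

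Snhg11 was higher in KO than in WT microglia in every culture. Male KO microglia held 3.84, 4.15 and 4.54 CPM of Snhg11 with DMSO, against 1.88, 1.98 and 2.33 CPM in male WT. With myelin the male KO values were 5.26, 5.53 and 5.30 CPM and the male WT values 1.75, 2.56 and 1.63 CPM. No KO library overlapped a WT library of the same sex and treatment. Female KO microglia held 4.51, 3.86 and 3.52 CPM with DMSO, against 1.62, 2.68 and 2.21 CPM in female WT. With myelin female KO cultures held 4.88, 4.60 and 4.86 CPM and female WT cultures 1.99, 3.06 and 2.38 CPM.

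The log2 difference of Snhg11 was 1.01 ± 0.21 in male DMSO (adjusted p = 0.000149 in edgeR), 1.43 ± 0.20 in male myelin (adjusted p = 1.81e-07), 0.86 ± 0.20 in female DMSO (adjusted p = 0.002) and 0.96 ± 0.20 in female myelin cultures (adjusted p = 0.000541). KO against WT called 20.9% of genes in male DMSO, 20.6% in male myelin, 11.9% in female DMSO and 7.28% in female myelin cultures. The level is low, at 26 to 108 reads per library. Precursor markers were 117 to 130 CPM in female KO and 84.2 to 85.6 CPM in female WT DMSO cultures, without overlap. With their level as a covariate the female differences were 1.04 ± 0.45 (adjusted p = 0.329 in edgeR) and 1.10 ± 0.37 (adjusted p = 0.13). These values were no smaller but had a larger SE, and such a fit can hardly tell marker level from genotype. Female values minus male values were -0.16 ± 0.29 with DMSO and -0.48 ± 0.29 with myelin (adjusted p = 0.367 in edgeR).

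Meg3 was lower in KO microglia of males. Male KO cultures held 0.433, 0.237 and 0.448 CPM with DMSO, against 1.88, 1.61 and 1.55 CPM in male WT, a difference of -2.16 ± 0.45 (adjusted p = 0.000234 in edgeR). With myelin male KO cultures held 0.137, 0.119 and 0.344 CPM and male WT cultures 1.88, 1.31 and 1.19 CPM, a difference of -2.76 ± 0.50 (adjusted p = 2.72e-05 in edgeR). All male KO libraries lay below all male WT libraries, on 2 to 7 reads against 19 to 32. Female KO cultures held 1.22, 1.08 and 0.477 CPM with DMSO and 2.50, 1.08 and 0.540 CPM with myelin. Female WT cultures held 1.06, 1.08 and 0.895 CPM with DMSO and 1.07, 0.874 and 0.627 CPM with myelin. The female groups overlapped, at -0.12 ± 0.41 with DMSO (adjusted p = 0.912 in edgeR) and 0.67 ± 0.40 with myelin (adjusted p = 0.399).

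Choroid plexus markers were lower in male KO cultures as well. The summed level of 8 of them was 4.58 to 22.1 CPM in male KO DMSO and 6.14 to 15.4 CPM in male KO myelin cultures, against 128 to 225 and 147 to 211 CPM in male WT. Of those markers, all 8 were detected in male KO DMSO and 7 in male KO myelin cultures. Within female KO cultures the order was not the same throughout. With myelin, Meg3 of 2.50, 1.08 and 0.540 CPM stood beside 503, 44.3 and 193 CPM of these markers, and with DMSO Meg3 of 1.22, 1.08 and 0.477 CPM beside 541, 58.6 and 45.8 CPM. Over deviations of the 24 libraries from their group means r was 0.37 and rho 0.26. Markers of pericytes, smooth muscle and fibroblasts were also lower in male KO cultures, at 5.7 to 10.1 CPM with DMSO and 4.34 to 7.37 CPM with myelin, against 17.1 to 24.9 and 14.2 to 31.2 CPM in male WT. With the choroid plexus marker level as a covariate Meg3 was -1.13 ± 0.65 in male DMSO (adjusted p = 0.341 in edgeR) and -1.79 ± 0.675 in male myelin cultures (adjusted p = 0.0883). Neither was called. These markers did not overlap between male KO and WT, so the fit can hardly tell marker level from genotype. Precursor markers, at 109 to 123 CPM in male KO and 126 to 133 CPM in male WT DMSO cultures, did not overlap either. With their level as a covariate the DMSO value of Meg3 was -1.22 ± 0.65 (adjusted p = 0.294 in edgeR).

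The genotype effect on Meg3 passed the test for a difference between the sexes, though not in every fit. The female difference minus the male one was 2.04 ± 0.62 with DMSO (adjusted p = 0.0289 in edgeR) and 3.42 ± 0.65 with myelin (adjusted p = 0.000345). These contrasts, also added after the data had been seen, called 7.54% of genes with DMSO and 6.51% with myelin. With the choroid plexus covariate they were 0.998 ± 0.76 (adjusted p = 0.665 in edgeR) and 2.34 ± 0.81 (adjusted p = 0.153). With the precursor marker covariate the DMSO difference turned to -0.74 ± 1.52 (adjusted p = 0.966 in edgeR) and the myelin one was 1.76 ± 1.04 (adjusted p = 0.639), both with a larger SE. The DMSO call also ended with limma-voom (1.93, adjusted p = 0.072) and without any of 5 libraries left out in turn, namely female KO replicates 1 and 2, female WT replicate 3, male KO replicate 2 and male WT replicate 1, at 1.81 to 1.95.

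Neat1 was higher in KO than in WT in female myelin cultures, at the levels given above, by 0.27 ± 0.07 (adjusted p = 0.0276 in edgeR). The other 3 genotype differences of Neat1 were -0.13 ± 0.07 in male DMSO, -0.09 ± 0.07 in male myelin and 0.11 ± 0.07 in female DMSO cultures. The female minus male difference with myelin was 0.36 ± 0.10 (adjusted p = 0.0436 in edgeR). Both calls rest near the threshold: the female one ended without any female KO myelin replicate and without female WT myelin replicate 1 or 3 (adjusted p = 0.0611 to 0.129), and the sex difference ended in 11 of 12 such fits (adjusted p up to 0.13). Without the filter on low counts both ended too (adjusted p = 0.0577 and 0.0964 in edgeR), as they did with the precursor marker covariate (0.711 and 0.683), and the sex difference also with the choroid plexus covariate (0.338). Malat1 was not called by genotype, at 0.00 ± 0.10 in male DMSO, 0.15 ± 0.10 in male myelin and -0.17 ± 0.10 in female myelin cultures. In female DMSO cultures all KO libraries lay below all WT libraries, at -0.24 ± 0.10 with a 95% interval of -0.45 to -0.04 (adjusted p = 0.157 in edgeR). With only the groups of the comparison the male myelin value passed, at 0.15 (adjusted p = 0.0374 in edgeR). Miat was -1.07 ± 0.41 in male myelin cultures (adjusted p = 0.0516 in edgeR), and Rian, from -0.91 in male myelin to 0.25 in female myelin cultures, was not called. The plot of fold changes sets all comparisons side by side.

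**Figure D4:**
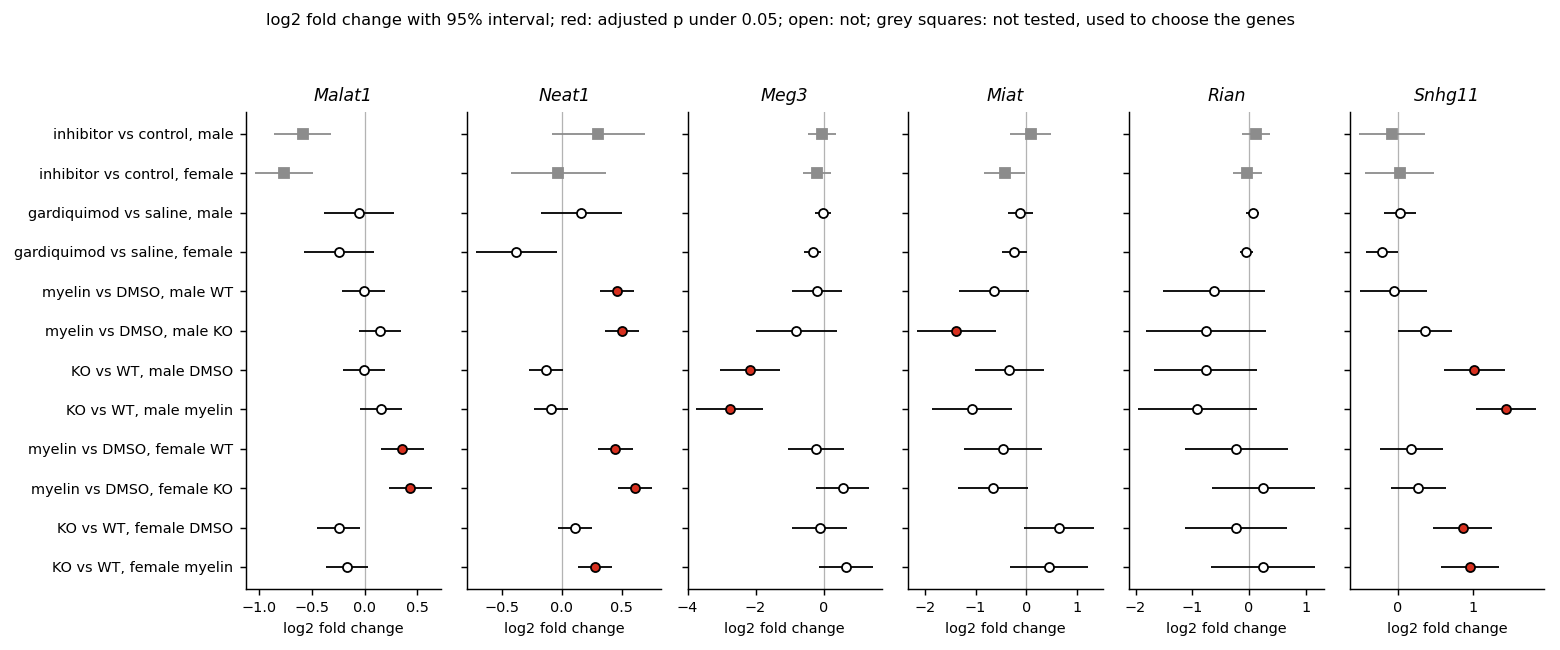
Log2 fold changes of the noncoding RNAs with their approximate 95% intervals in the inhibitor, gardiquimod, myelin and KO comparisons of each sex; red points were called, open points were not, and grey squares are the inhibitor values, which are shown as a description. Malat1 lies lowest with the inhibitor, at -0.59 in males and -0.76 in females; Neat1 rises with myelin by 0.45 to 0.61 and Snhg11 is higher in KO by 0.86 to 1.43.

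Protein genes of paraspeckles moved in both directions with myelin, beside the rise of their scaffold Neat1. Of 21 tested, 8 were higher and 2 lower in male KO, 7 and 2 in male WT, 9 and 3 in female KO, 6 and 4 in female WT, with medians of 0.02 to 0.07 against -0.01 to 0.01 over all genes. That was 42.9 to 57.1% of the list, against 38.2 to 41.2% of all genes. Pspc1, a core paraspeckle protein gene, rose by 0.63, 0.52, 0.66 and 0.56 (SE 0.06) in these cultures. Nono, which binds Neat1 directly, was lower by -0.16 in male KO, -0.14 in male WT and -0.15 in female WT cultures (SE 0.03).

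Noncoding snoRNA host genes, the class of Snhg11, had more members higher than lower with myelin. Of 13 tested, 6 were higher and 0 lower in male KO, 8 and 1 in male WT, 8 and 0 in female KO, 8 and 1 in female WT, with medians of 0.21, 0.36, 0.38 and 0.37. The share called was 46.2, 69.2, 61.5 and 69.2%, against 38.2, 39.3, 41.2 and 40.4% of all genes, of which 18 to 20.8% were higher. Zfas1 rose by 0.60 in male WT, 0.70 in female KO and 0.50 in female WT cultures, and Snhg17 by 0.49, 0.65 and 0.61. Snhg1 rose by 0.62 in male KO cultures and Gas5, a growth-arrest-associated host, by 0.17. In KO against WT none of these 13 was called with DMSO in either sex by edgeR (3 in males and 0 in females at an unadjusted p under 0.05). Zfas1, Snhg6 and Snhg17 were lower in male KO myelin cultures, by -0.54, -0.32 and -0.25, and Gas5 was higher by 0.24 in female KO myelin cultures.

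Genes with detained-intron transcripts had more members lower than higher with myelin. These are counts of whole genes, in which retained and spliced mRNA are not separated. The list had 0 higher and 8 lower of 15 in male KO, 2 and 8 in male WT, 2 and 6 in female KO, 1 and 9 in female WT. Those called were 53.3 to 66.7% of the list, against 38.2 to 41.2% of all genes, of which 19.4 to 21.1% were lower. Rsrp1, an arginine- and serine-rich protein gene, was lower by -0.44, -0.40, -0.44 and -0.43 (SE 0.04). Ogt, an O-GlcNAc transferase gene whose mRNA is known to keep an intron, was lower by -0.35, -0.26, -0.33 and -0.35. Speckle and splicing factor genes were called both ways, at 6 higher and 4 lower of 26 in male KO, 4 and 3 in male WT, 8 and 3 in female KO, 5 and 3 in female WT, at 26.9 to 42.3% of the list, and Srsf5, a splicing factor gene, was lower by -0.33, -0.27, -0.31 and -0.29. Of 15 other nuclear noncoding RNAs few were called with myelin, 2 higher in male KO, 1 in male WT, 2 higher and 1 lower in female KO and 1 higher in female WT, which is 6.67 to 20% of the list against 16.6 to 19.2% of long noncoding genes. They included Pvt1, a noncoding neighbour of Myc, higher by 0.50 in male KO cultures.

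In KO against WT, 2 of the 15 other nuclear noncoding RNAs tested were higher and 2 lower in male DMSO cultures. Only the 2 lower ones, both of neural cells, are named here. Meg3 was lower there too, and no common direction is read from these genes. Mir9-3hg, a microRNA host of neural progenitors, was -1.56 ± 0.34 in male DMSO and -1.13 ± 0.36 in male myelin cultures, and Sox2ot, which spans the Sox2 gene and may share its reads, was -1.31 ± 0.45 and -1.79 ± 0.46. Over the list 2 were higher and 2 lower in male DMSO, 1 and 2 in male myelin, 1 and 0 in female DMSO and 0 and 0 in female myelin cultures, where 1 had an unadjusted p under 0.05 in edgeR. Of 18 imprinted genes 3 were higher and 3 lower in male DMSO, 2 and 5 in male myelin, 4 and 0 in female DMSO and 6 and 0 in female myelin cultures. The noncoding list thus had 26.7, 20, 6.67 and 0% called and the imprinted list 33.3, 38.9, 22.2 and 33.3%, against 20.9, 20.6, 11.9 and 7.28% of all genes. Nnat, an imprinted gene of neural cells, was lower in male KO as Meg3 was and, unlike Meg3, was called higher in female KO, at -0.56 ± 0.10 and -0.64 ± 0.11 in male and 0.93 ± 0.10 and 0.58 ± 0.12 in female KO cultures with DMSO and myelin.

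Within the hippocampal experiments Meg3, Miat, Snhg11 and Mirg varied together, while Rian did not follow them in the inhibitor experiment. Each library's deviation from the mean of its group was compared between genes, over 17 inhibitor and 28 agonist libraries that share depth, scaling and tissue composition. The values are descriptions. Meg3 and Snhg11 had Pearson's r = 0.98 (Spearman's rho 0.99) in the inhibitor and 0.95 (0.93) in the agonist experiment, and 0.98 and 0.92 without the 2 libraries farthest from the median of Meg3. Meg3 and Miat had 0.95 and 0.85. Meg3 and Rian, which share a locus, had -0.35 and 0.25, and Meg3 and Mirg 0.79 and 0.66. In microglia, where both are scarce, Meg3 and Snhg11 had 0.03 over 24 libraries.

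Malat1 was less tied to the others in the inhibitor experiment, at 0.23 with Meg3, 0.20 with Snhg11 and 0.35 with Neat1, than in the agonist experiment, at 0.79, 0.67 and 0.57. No test of that difference was made. Neat1 varied with the mitochondrial share of counts, at 0.77 and 0.89, and against the level of neuron markers, at -0.69 in both experiments. Rian varied with the mitochondrial share as well, at 0.85 and 0.44, and against neuron markers, at -0.84 and -0.40, while Meg3 had -0.52 and 0.43. The part of RNA quality or tissue composition in these relations was not tested.

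**Figure D5:**
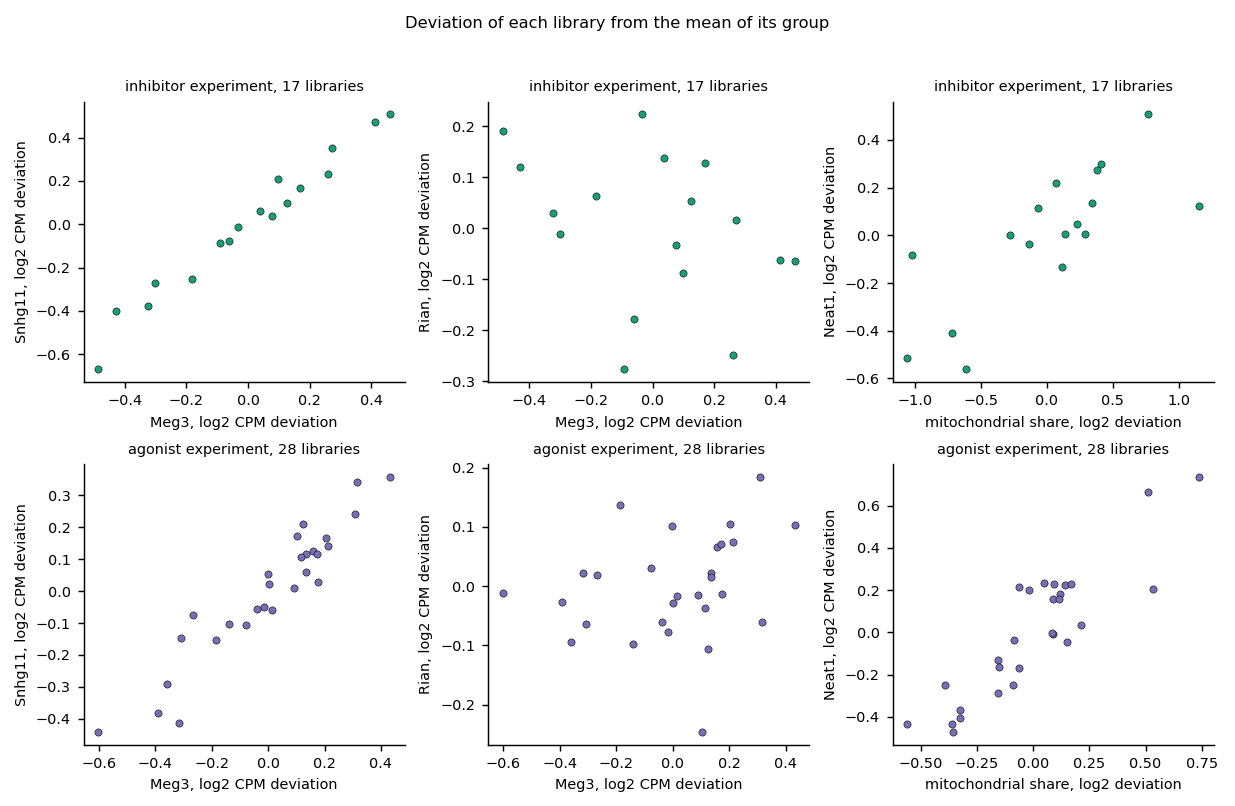
Deviation of each hippocampal library from its group mean on the log2 CPM scale, for Snhg11 against Meg3, Rian against Meg3, and Neat1 against the mitochondrial share of counts. Points are libraries, 17 of the inhibitor and 28 of the agonist experiment; Snhg11 follows Meg3 closely (r = 0.98 and 0.95), Rian does not (-0.35 and 0.25), and Neat1 rises with the mitochondrial share (0.77 and 0.89).

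The promoters of Meg3 and Snhg11 are printed because these genes moved together most closely. They are RefSeq sequences of GRCm38.p6, each a window of 300 bases around an annotated start. The window printed for Meg3 is chr12:109540746-109541045 and that for Snhg11 chr2:158375463-158375762, both on the plus strand. Capitals mark matches on either strand to 4 motifs. These are TGACGTCA, which factors of the CREB family bind, GGGCGG, a site of Sp1, and CCAAT, a site of NF-Y. The last is TATAAA, which places the start of transcription.
Meg3: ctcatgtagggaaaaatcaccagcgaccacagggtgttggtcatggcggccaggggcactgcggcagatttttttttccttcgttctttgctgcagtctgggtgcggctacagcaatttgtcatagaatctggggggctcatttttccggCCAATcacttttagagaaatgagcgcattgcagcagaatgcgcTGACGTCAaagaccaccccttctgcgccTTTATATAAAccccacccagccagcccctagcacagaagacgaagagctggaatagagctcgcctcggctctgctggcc
Snhg11: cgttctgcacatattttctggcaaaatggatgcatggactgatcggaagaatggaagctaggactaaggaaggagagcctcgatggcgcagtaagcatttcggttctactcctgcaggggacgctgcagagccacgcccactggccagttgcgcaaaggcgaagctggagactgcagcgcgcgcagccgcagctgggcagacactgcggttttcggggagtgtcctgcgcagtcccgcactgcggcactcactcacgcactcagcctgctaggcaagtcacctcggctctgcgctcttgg

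The printed Meg3 window held TGACGTCA 1 time, CCAAT 1 time and TATAAA 2 times, 1 match on each strand that overlap. Another annotated Meg3 promoter, chr12:109545148-109545447, is not printed and held none of the 4 motifs. Of 32851 mouse promoters of this length, 1.79% hold TGACGTCA, 37.4% CCAAT, 13.6% TATAAA and 35.7% GGGCGG. The Snhg11 window held none of the 4, nor did those of Malat1 and Rian. Miat's held GGGCGG 1 time and Mirg's CCAAT 1 time.

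Genes whose deviations were most like those of each member were named among 7018 genes with at least 10 CPM in all 3 experiments, by the mean of the r values of the experiments, over 69 libraries. For Malat1 they included Smg1, a kinase gene of nonsense-mediated decay, at 0.68, Myo9b at 0.63, Slf2 at 0.60, and Pou2f1, an octamer-binding factor gene, at 0.59. For Neat1 they were Ids (0.71), Luc7l2 (0.70) and Plekhg3 (0.70), for Meg3 Tmem181b-ps (0.67), Ttc14 (0.65) and Fnbp4 (0.65), and for Miat Arglu1 (0.71), Pnisr (0.71) and Ttc14 (0.70). For Snhg11 they were Arglu1 (0.69), Rbm5 (0.68) and Ogt (0.66), for Rian Tnfaip8 (0.66), mt-Nd1 (0.65) and Nudt4 (0.64). Mirg, compared in the hippocampal experiments alone, had Rbm5 (0.75), Cstf2 (0.70) and Abcc5 (0.68). By level over the 17 inhibitor libraries, with group differences included, the genes most like Malat1 among 10063 were Atxn7 (0.74), Wdr20 (0.74), St6galnac3 (0.73), Lhfpl2 (0.72) and Gnpda2 (0.70).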

How the data were processed

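The 69 mouse libraries of 3 experiments were made with a 3′ mRNA kit, per the labels, and each experiment was analysed on its own. The authors deposited raw counts per gene as whole numbers, without scaling. The submitters' processing notes name DESeq2 1.38.3 and the builds GRCm38 and mm10. Aligner, counting program and strand setting were not given in the sources used here. The inhibitor table lists symbols alone. Coordinates of the members in the other tables matched GENCODE M21.

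Samples were grouped by their labels, and 0 count columns were left unmatched. Tests used edgeR 4.0.16 in R 4.3.3 (filterByExpr, TMM, 1 mean per group over all libraries of an experiment, robust quasi-likelihood test, 2-sided), limma 3.58.1 and DESeq2 1.42.0, and the script was tested on simulated data. After the filter 17128, 17218 and 14468 genes of the inhibitor, agonist and microglia tables were tested. Each SE is the fold change over the root of F, which gives approximate 95% intervals. The biological coefficient of variation was 0.179, 0.132 and 0.0507 in these experiments. Log2 CPM used a prior count of 2. No correction by molecular identifiers is given, so read numbers cover counting error only. The labels do not name a separate culture for each microglia library, so p-values measure the spread between samples, which may be technical.

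Same-numbered DMSO and myelin libraries deviated together in female KO cultures, where all 3 pairs correlated above 0.1 (0.116 to 0.442), and in none of the 9 pairs of the other cultures. Of 72 same-numbered pairs of cultures that differed in sex or genotype, 6 also correlated above 0.1. All tests reported above used group means without pairing, so the p-values of female KO cultures do not take it into account. A block by replicate number within female KO cultures was run as an alternative only.

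The members and lists were chosen with earlier results of these data known. Of each list up to 4 called genes were named by smallest p in a comparison, plus 4 abundant nuclear noncoding RNAs per sex in the inhibitor experiment, Xist left out where all male controls were near 0 and Airn left out because it overlaps Igf2r. Alternatives were limma-voom, DESeq2, other size factors, no filter, age, other samples, each replicate left out, the replicate number as a block, and marker or mitochondrial covariates. The astrocyte covariate and the block within female KO cultures were added last. A few genes that the naming rules select are not reported here.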

Additional observations from a re-analysis of the deposited data

Results flagged for a closer look

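The genotype difference of TLR7 KO in microglia passed the test for a difference between the sexes for 2 members, and neither held in every fit. For Meg3 the KO minus WT difference was higher in females than in males by 2.04 ± 0.62 with DMSO (adjusted p = 0.0289 in edgeR) and by 3.42 ± 0.65 with myelin (adjusted p = 0.000345). All 3 male KO libraries lay below all 3 male WT libraries in each treatment, and the female groups overlapped. Choroid plexus markers were lower in male KO than in male WT cultures, at 4.58 to 22.1 against 128 to 225 CPM with DMSO, and Meg3 rests on 2 to 43 reads per library. The DMSO call of Meg3 ended in 5 fits with 1 library left out, with limma-voom and with the choroid plexus covariate. With the precursor marker covariate the value turned to -0.74 ± 1.52. The myelin call of Meg3 ended with either covariate. For Neat1 the female minus male difference was 0.36 ± 0.10 with myelin (adjusted p = 0.0436 in edgeR), with KO above WT in females and overlapping groups in males. That call ended in 11 of 12 fits with 1 library left out, without the filter on low counts and with either covariate.

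No library stood apart from its group in 42 tests for an outlying member value, each of 1 gene in 1 group of 4 or more libraries. Chance alone marks about 5% of such tests, and genes that vary together do not give independent ones. Groups of 3 libraries, namely the inhibitor controls and all microglia cultures, were not tested.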

How the results depend on the processing

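Every inhibitor fold change of Malat1 kept its direction in each sex and on average under all alternatives run, with -0.87 to -0.57 in females when 1 library was left out. How many of the 7 members were called moved with the setting, and nothing is read from the inhibitor counts, whose contrast chose the set. Averaged over the sexes the inhibitor called 1 member, but 0 with the choroid plexus covariate or without the male libraries holding Xist, and 0 to 1 with 1 library left out. In females it called 1, but 0 with that covariate, with the groups of the comparison alone or without libraries of low mitochondrial share, and 0 to 1 with 1 left out. In males it called 0, but 1 with DESeq2, with the mitochondrial share as a covariate or with the groups of the comparison alone. For KO against WT, the precursor marker covariate gave 0 in female DMSO (1 otherwise), 0 in female myelin (2), 1 in male DMSO (2), and 0 for both sex differences (1 with DMSO, 2 with myelin). It turned the Meg3 sex difference with DMSO to -0.74, with an SE of 1.52. The choroid plexus covariate gave 1 in male DMSO and in male myelin cultures (2 each) and 0 for both sex differences. No filter gave 1 in female myelin cultures and for the sex difference with myelin, limma-voom gave 0 for the sex difference with DMSO, and the groups of the comparison alone gave 4 in male myelin cultures. For myelin the precursor covariate gave 1 in female KO, 0 in female WT and 0 in male KO (2 each), and the groups alone gave 1 in female WT. Leaving out 1 library gave 0 to 2 for the sex difference with DMSO, 1 to 2 for that with myelin, 1 to 2 for KO against WT in female myelin and 1 to 2 for myelin in female WT cultures. Over all genes, inhibitor calls in females were 15, but 173 with DESeq2, and in males 18 and 202. With gardiquimod in males they were 38 and 254. The covariates and the data-driven exclusions of libraries were added after the data had been seen, and the cause of these changes was not tested. Where a marker level did not overlap between the groups compared, the fit can hardly separate the marker from the group. A call lost there does not tell whether a difference was lost. A replicate block over all cultures moved no count of members, nor did one within female KO cultures alone (2 members with myelin), and the genes called in female DMSO cultures were 1829 with the block over all cultures and 1721 without. No paired analysis was possible because labels of hippocampal libraries carry no shared replicate numbers. At most 43 reads per microglia library of Meg3, 36 of Miat and 20 of Rian limit what can be seen there.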
